A study of Homo sapiens with 12 samples.

Results

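The oncofetal and liver cancer markers described here are 10 genes, AFP, SPINK1, MDK, GPC3, EPCAM, DLK1, KRT19, SOX9, PEG10 and IGF2BP1, of the 19988 protein-coding genes in the deposited table. They were chosen by symbol as a list of fetal liver, progenitor and hepatocellular carcinoma markers, with earlier results of these data known. All 10 were in the table and all 10 passed the filter on low counts. Poly-A RNA was sequenced from subcutaneous tumours of Huh-7 cells, a human hepatocellular carcinoma line known for secreting alpha-fetoprotein. There were 4 groups of 3 libraries. The CS2164_IR tumours received CS2164 and radiation, the CS2164 tumours the compound alone, the IR tumours radiation alone, and the control tumours the co-solvent.

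CS2164, also called chiauranib, is an oral inhibitor of Aurora kinase B, VEGF receptors and other kinases, given here at 10 mg/kg per day by gavage. Radiation was given at 2 Gy per day in 10 fractions. The hosts were BALB/c nude mice, bought at 6 weeks of age, which lack a thymus and so most T cells. Treatment started when tumours averaged 150 to 200 mm3, and the time of harvest is not given in the sources used here. All tumours came from a single cell line, so the groups are models of that line only. The cell line label reads Huh-7 for all 12 libraries, whereas titles call the CS2164_IR libraries Huh-10, the CS2164 libraries Huh-8 and the IR libraries Huh-9. Nothing states that the libraries of a group came from separate mice, so the p-values measure only the spread between these libraries, which may be technical.

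Oncofetal genes are active in the fetal liver, are silenced around birth in hepatocytes, and are switched on again in many liver cancers. Alpha-fetoprotein and glypican-3 serve as serum and tissue markers of hepatocellular carcinoma for that reason. EPCAM, keratin 19 and SOX9 mark bile duct and bipotent progenitor cells, and a tumour that carries them is often described as having progenitor features.

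Promoter sequence is shown for AFP and SPINK1, the member with the highest level and the member with the largest change, since RefSeq sequences were at hand for these 2 of the 10. Each line gives the 250 bases before the RefSeq start on build GRCh38.p14, from 5′ to 3′ on the strand of the gene. The AFP window lies inside, and the SPINK1 window partly inside, the outer GENCODE gene bounds given below, since GENCODE lists starts further upstream. Capitals mark matches of the motifs named below.
AFP, chr4:73435971-73436220, plus strand: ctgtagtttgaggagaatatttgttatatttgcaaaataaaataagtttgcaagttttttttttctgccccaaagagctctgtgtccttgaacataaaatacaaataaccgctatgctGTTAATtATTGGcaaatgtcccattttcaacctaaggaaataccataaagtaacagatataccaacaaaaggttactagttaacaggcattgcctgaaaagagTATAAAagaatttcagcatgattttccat
SPINK1, chr5:147831672-147831921, minus strand: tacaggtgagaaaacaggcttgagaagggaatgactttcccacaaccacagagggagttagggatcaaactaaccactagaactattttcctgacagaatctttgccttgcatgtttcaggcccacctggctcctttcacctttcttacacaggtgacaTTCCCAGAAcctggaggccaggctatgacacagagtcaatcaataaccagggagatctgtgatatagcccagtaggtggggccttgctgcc
In AFP the capitals are the HNF1 core GTTAAT at -132 to -127 from the start, ATTGG, which is CCAAT on the other strand, at -125 to -121, and a TATA box, TATAAA, at -29 to -24. HNF1 is the hepatocyte factor through which the AFP promoter is known to be driven. In SPINK1 they are TTCCCAGAA at -91 to -83, a match of TTCNNNGAA, the spaced palindrome that STAT3 binds, and SPINK1 is known as an acute-phase gene that interleukin-6 induces. Of 35116 RefSeq promoter windows of the same length, searched on both strands, GTTAAT was in 6.23%, CCAAT in 32.0%, TATAAA in 10.7% and TTCNNNGAA in 6.57%. The full HNF1 palindrome, in 0.00570% of windows, and the FOXA motif TGTTTAC, in 2.98%, had no match in either promoter. These matches describe the letters only, and no binding was measured.

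The 12 libraries held 12886607 to 16890346 counts over protein-coding genes. Levels are CPM, counts scaled to a common library size by the TMM method, fold changes are log2 values ± standard error, and a change is called where the Benjamini-Hochberg adjusted p of the edgeR quasi-likelihood test over 13521 genes was under 0.05. CS2164 library 1 and control library 2 stood furthest from their own groups, with mean rank correlations to the other libraries of the group of 0.973 and 0.979, and results that depend on them are given without them. All 15 hepatocyte markers were detected, and together they took 4.18% to 6.30% of counts in CS2164_IR, 5.07% to 6.29% in CS2164, 3.79% to 4.04% in IR and 5.41% to 5.84% in control libraries. Marker lists of blood vessel, connective tissue, immune, skin, muscle, fat and red cells each took at most 0.0101% of counts, and the treatment of reads from the mouse host is not stated. The fibroblast and pericyte list took 0.00793% to 0.00847% in CS2164_IR, 0.00630% to 0.00882% in CS2164, 0.00717% to 0.0101% in IR and 0.00473% to 0.00521% in control libraries, and its part in the results was not tested. COL1A2 was its highest gene, with a mean of 39.3 CPM over the 12 libraries, while ACTA2 averaged 0.0774 CPM and THY1 had no count. In tumour pieces, fewer cells of a type and less RNA per cell cannot be told apart.

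Between genes, levels were compared per length with the FPKM that the authors deposited. AFP stood first at 4873 ± 1056 FPKM (SD, n = 12), rank 9 among the tested genes, and took 0.895% to 2.08% of all counts. The cell surface proteoglycan gene GPC3 (487 ± 64.9 FPKM), the growth factor gene MDK (326 ± 70.7 FPKM) and PEG10 (264 ± 64.6 FPKM) followed, with ranks 42, 67 and 81. SPINK1 averaged 187 ± 108 FPKM and KRT19 84.8 ± 19.3 FPKM. EPCAM (27.2 ± 6.17 FPKM), IGF2BP1 (22.7 ± 4.49 FPKM) and SOX9 (15.7 ± 3.42 FPKM) were lower, and DLK1 was last at 2.65 ± 1.06 FPKM, rank 8700. AFP was above GPC3, GPC3 above MDK, KRT19 above EPCAM and SOX9 above DLK1 in all 12 libraries. The order was less regular elsewhere, with MDK above PEG10 in 8, PEG10 above SPINK1 in 9, EPCAM above IGF2BP1 in 9 and IGF2BP1 above SOX9 in 10 of the 12. SPINK1 varied most across the libraries, with a coefficient of variation of 59.0% in CPM, followed by DLK1 with 41.1%, while the other 8 lay between 15.2% and 25.8%.

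**Figure D1:**
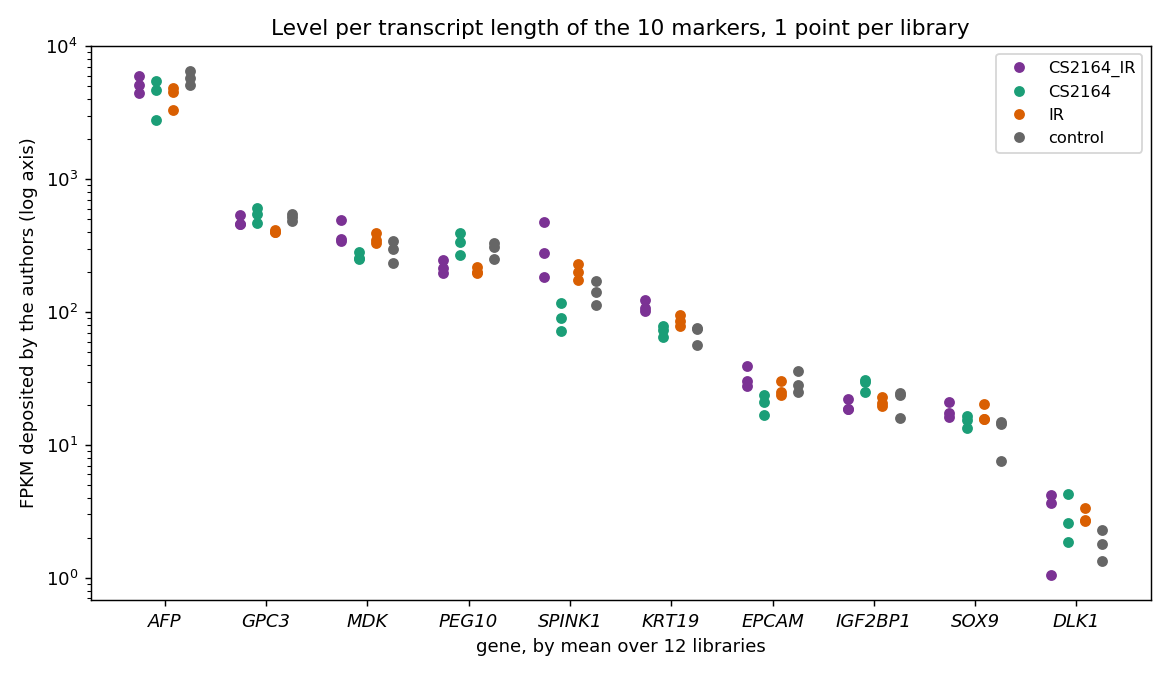
Level per length of the 10 markers on a log axis, in the FPKM deposited by the authors, with 1 point per library and genes ordered by their mean over 12 libraries. AFP lies between 2796 and 6493 FPKM, above every other marker, and DLK1 between 1.05 and 4.29 FPKM.

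Among the secreted products, SPINK1 changed with the treatments and AFP and MDK did not pass the test in any comparison. SPINK1 (ENSG00000164266, chromosome 5, 147824568 to 147831786, minus strand) encodes a trypsin inhibitor secreted by the pancreas and by many tumours. It had 666, 241 and 378 CPM in CS2164_IR libraries, 106, 124 and 162 CPM in CS2164 libraries, 296, 265 and 232 CPM in IR libraries, and 228, 203 and 153 CPM in control libraries. Each of the 6 irradiated libraries was above each of the 6 others, and CS2164_IR library 1 was the highest of all. SPINK1 was 3.28-fold higher in CS2164_IR than in CS2164 tumours (log2 1.71 ± 0.28, 95% interval 1.08 to 2.35, adjusted p = 0.0028, edgeR). Averaged over tumours with and without CS2164, irradiated tumours had 2.11-fold more SPINK1 (log2 1.08 ± 0.19, adjusted p = 0.0041, edgeR). Without CS2164_IR library 1 these changes were 1.24 (adjusted p = 0.0119) and 0.84 (adjusted p = 0.00466) on the log2 scale, edgeR. Without both distant libraries they were 1.58 (adjusted p = 0.0494) and 1.03 (adjusted p = 0.0545, edgeR), so the averaged change was no longer called.

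SPINK1 did not pass the test against control in any treated group by edgeR. The log2 differences were 1.14 ± 0.27 in CS2164_IR (adjusted p = 0.0782), -0.58 ± 0.27 in CS2164 (adjusted p = 0.138) and 0.44 ± 0.27 in IR (adjusted p = 0.431, edgeR), and these 3 comparisons share the control libraries. DESeq2 did call SPINK1 in CS2164_IR against control (adjusted p = 0.00435), as did edgeR without CS2164_IR library 2 (adjusted p = 0.0164). The interaction, that is how far the effect of CS2164 differed between irradiated and unirradiated tumours, was 1.27 ± 0.38 for SPINK1 (adjusted p = 0.109 in edgeR and 0.0297 in DESeq2). After removal of the trend with GC content and length, the SPINK1 difference in CS2164 against control turned to 0.12 and the interaction was 0.57 (adjusted p of 0.849 and 0.565, edgeR). SPINK1 has a GC content of 39.1%.

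AFP (ENSG00000081051, chromosome 4, 73431138 to 73456174, plus strand) encodes alpha-fetoprotein, the main plasma protein of the fetus. It had 19511, 13874 and 16463 CPM in CS2164_IR libraries, 9714, 15061 and 17808 CPM in CS2164 libraries, 13660, 14906 and 10281 CPM in IR libraries, and 18173, 21797 and 16075 CPM in control libraries. The IR libraries all lay below the control libraries, and the other groups overlapped with control. The log2 difference from control was -0.17 ± 0.23 in CS2164_IR (95% interval -0.69 to 0.35), -0.40 ± 0.23 in CS2164 (-0.92 to 0.13) and -0.53 ± 0.23 in IR (-1.05 to -0.004), with adjusted p of 0.728, 0.226 and 0.274 by edgeR. These intervals are not adjusted for the number of genes, and they leave room for changes of up to about 1 on the log2 scale. Removal of the trend with GC content and length turned the sign in CS2164_IR and CS2164 tumours, to 0.11 in each. AFP is a gene of low GC content (38.8%), and the rank correlation of fold change with GC content over all genes was 0.480 and 0.453 in these comparisons. In IR against control that correlation was 0.438. The AFP difference there ran from -0.55 to -0.27 over the alternatives other than leaving out single libraries.

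The AFP level was close to that of its relative ALB, adult albumin. Per length, AFP reached 82.5%, 103% and 100% of the ALB level in CS2164_IR libraries, 83.0%, 91.0% and 88.0% in CS2164 libraries, 101%, 118% and 81.5% in IR libraries, and 94.6%, 98.2% and 86.2% in control libraries. The groups overlapped in this share. ALB itself had 14569, 13494 and 13517 CPM in IR libraries and 20584, 23802 and 19985 CPM in control libraries. None of the albumin family genes ALB, AFM and GC was called in any of the 8 comparisons by edgeR. The lower AFP of the IR libraries went with a lower share of hepatocyte markers, and the part of one in the other was not tested.

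MDK (ENSG00000110492, chromosome 11, 46380756 to 46383837, plus strand) encodes midkine, a heparin-binding growth factor of the embryo that is also a serum marker of liver cancer. It had 1097, 744 and 742 CPM in CS2164_IR libraries, 670, 552 and 567 CPM in CS2164 libraries, 716, 704 and 832 CPM in IR libraries, and 635, 785 and 501 CPM in control libraries. The CS2164_IR libraries were all above the CS2164 libraries, and the remaining pairs of groups overlapped, apart from IR above CS2164, a pair that was not tested. MDK differed by 0.53 ± 0.18 between CS2164_IR and CS2164 (adjusted p = 0.0751) and by 0.38 ± 0.13 for radiation averaged over CS2164 (adjusted p = 0.0809), both on the log2 scale and both short of the threshold in edgeR. Without both distant libraries MDK was called in each comparison (0.62, adjusted p = 0.0116, and 0.51, adjusted p = 0.00401, edgeR), as it was without CS2164 library 1 or control library 2 alone and by DESeq2 (adjusted p of 0.0475 and 0.0485). Over the alternatives other than leaving out single libraries, these differences ran from 0.40 to 0.62 and from 0.25 to 0.51. MDK has a GC content of 62.0%.

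Of the 3 cell surface markers, EPCAM changed between CS2164_IR and CS2164 tumours. GPC3 (ENSG00000147257, chromosome X, 133535745 to 133985895, minus strand) encodes glypican-3, a proteoglycan anchored in the membrane and a target of antibody and cell therapies. It had 1808, 1450 and 1512 CPM in CS2164_IR libraries, 1677, 1808 and 2030 CPM in CS2164 libraries, 1247, 1320 and 1291 CPM in IR libraries, and 1748, 1770 and 1585 CPM in control libraries. The IR libraries were below those of every other group. The log2 difference was -0.40 ± 0.15 in IR against control (adjusted p = 0.201) and -0.31 ± 0.10 for radiation averaged over CS2164 (adjusted p = 0.0758), and neither passed the test in edgeR. The averaged difference of GPC3 was called without both distant libraries (-0.32, adjusted p = 0.00962), without CS2164 library 1 alone (adjusted p = 0.0294, edgeR) and by DESeq2 (adjusted p = 0.0106). It was also called after removal of the trend with GC content and length. Against control, GPC3 differed by -0.10 in CS2164_IR (95% interval -0.43 to 0.24) and by 0.11 in CS2164 (-0.23 to 0.45).

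EPCAM (ENSG00000119888, chromosome 2, 47345158 to 47387601, plus strand) encodes an epithelial adhesion molecule of bile duct and progenitor cells. It had 97.7, 65.0 and 73.7 CPM in CS2164_IR libraries, 44.2, 51.5 and 58.8 CPM in CS2164 libraries, 69.6, 56.2 and 59.5 CPM in IR libraries, and 66.7, 91.5 and 60.0 CPM in control libraries. The CS2164 libraries were all below the CS2164_IR and the control libraries. EPCAM was 1.53-fold higher in CS2164_IR than in CS2164 (log2 0.61 ± 0.18, adjusted p = 0.0407, edgeR). This call was lost without CS2164_IR library 1 (0.43, adjusted p = 0.194, edgeR), CS2164_IR library 3, CS2164 library 1 or 2, IR library 2 or 3, or control library 1. It was also lost with the replicate block (adjusted p = 0.0651), limma voom (0.0504) and a fit of only these groups (0.0741). CS2164 alone against control gave -0.50 ± 0.18 (adjusted p = 0.0611, edgeR), and -0.20 (adjusted p = 0.51) without both distant libraries. The interaction of EPCAM was 0.85 ± 0.26 (adjusted p = 0.109 in edgeR and 0.0475 in DESeq2).

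DLK1 (ENSG00000185559, chromosome 14, 100725705 to 100738224, plus strand) encodes a membrane protein of the Notch ligand kind, found on hepatoblasts and imprinted so that the paternal copy is active. It had 5.65, 18.4 and 22.1 CPM in CS2164_IR libraries, 24.5, 9.82 and 13.8 CPM in CS2164 libraries, 16.6, 13.8 and 13.7 CPM in IR libraries, and 11.7, 9.93 and 6.96 CPM in control libraries. Spread within the CS2164_IR and CS2164 groups was wide, and only the IR libraries all lay above control. DLK1 differed from control by 0.70 ± 0.40, 0.75 ± 0.40 and 0.63 ± 0.40 on the log2 scale in CS2164_IR, CS2164 and IR tumours (adjusted p of 0.384, 0.19 and 0.448, edgeR). Between CS2164_IR and CS2164 the 95% interval ran from -0.94 to 0.84.

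KRT19 and SOX9 are the progenitor and bile duct markers inside the cell. The KRT19 level was higher in CS2164_IR than in CS2164 and for radiation averaged over CS2164. KRT19 (ENSG00000171345, chromosome 17, 41523617 to 41528308, minus strand) encodes a keratin of simple ducts. It had 298, 232 and 252 CPM in CS2164_IR libraries, 198, 154 and 173 CPM in CS2164 libraries, 210, 194 and 180 CPM in IR libraries, and 171, 184 and 131 CPM in control libraries. All 3 CS2164_IR libraries were above the 9 others. KRT19 was 1.49-fold higher in CS2164_IR than in CS2164 (log2 0.57 ± 0.15, adjusted p = 0.0265) and 1.34-fold higher for radiation averaged over CS2164 (0.42 ± 0.11, adjusted p = 0.0282, edgeR). Without CS2164_IR library 1 the adjusted p of KRT19 was 0.12 and 0.0739 in these comparisons, edgeR. The first call was also lost without CS2164_IR library 3 or CS2164 library 2 or 3, and the second without these, IR library 1 or 2, or control library 3. Radiation alone was not called against control (0.26 ± 0.15, adjusted p = 0.412, edgeR), and the IR and control libraries overlapped. CS2164_IR against control gave 0.68 ± 0.15 (adjusted p = 0.0641 in edgeR and 0.00506 in DESeq2). Without both distant libraries this difference was called in edgeR as well, with an adjusted p of 0.00511. KRT19 has a GC content of 61.8%. Its change for averaged radiation ran from 0.30 to 0.52 over the alternatives other than leaving out single libraries.

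Bile duct markers other than the members were mostly low. Of the 10 listed, 3 were under 1 CPM in every group, KRT7 reached at most 0.126 CPM and CLDN10 had no count in any library. Their summed share was 0.0335% to 0.0366% of counts in CS2164_IR, 0.0366% to 0.0459% in CS2164, 0.0309% to 0.0353% in IR and 0.0265% to 0.0324% in control libraries, most of it from SLC4A2 and ANXA4. Of the 7 tested, 2 rose in CS2164 against control, where 10.4% of all genes rose. In CS2164_IR against CS2164 1 fell (5.91% of all genes fell), and 1 rose for averaged radiation (3.45% rose). The part of such cells in the KRT19 result was not tested. KRT18, a keratin of hepatocytes and simple epithelia, rose in CS2164_IR against CS2164 (0.64 ± 0.15, adjusted p = 0.0169, edgeR), a call lost without CS2164_IR library 1 or 3 or CS2164 library 2 or 3. Both keratin genes have processed pseudogenes that could take some of their reads.

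SOX9 (ENSG00000125398, chromosome 17, 72121020 to 72126420, plus strand) encodes a transcription factor of bile duct and progenitor cells. It had 84.9, 65.9 and 63.6 CPM in CS2164_IR libraries, 70.4, 53.4 and 61.3 CPM in CS2164 libraries, 76.2, 59.6 and 59.7 CPM in IR libraries, and 54.9, 31.2 and 58.2 CPM in control libraries. CS2164_IR and IR libraries were all above control, where library 2, one of the distant libraries, was lowest. The log2 differences of SOX9 from control were 0.57 ± 0.20 in CS2164_IR, 0.36 ± 0.20 in CS2164 and 0.44 ± 0.20 in IR, with adjusted p of 0.185, 0.213 and 0.298 in edgeR. SOX9 was not called in any comparison under any alternative that was run.

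PEG10 and IGF2BP1 fell in CS2164_IR relative to CS2164 tumours. PEG10 (ENSG00000242265, chromosome 7, 94656325 to 94669695, plus strand) is a retrotransposon-derived, paternally expressed imprinted gene of placenta and fetal liver that many liver cancers reactivate. It had 1694, 1389 and 1316 CPM in CS2164_IR libraries, 1960, 2257 and 2680 CPM in CS2164 libraries, 1268, 1423 and 1290 CPM in IR libraries, and 2012, 1766 and 2177 CPM in control libraries. All 6 irradiated libraries were below all 6 others. For radiation averaged over CS2164, PEG10 fell by 34.7% (log2 -0.62 ± 0.11, adjusted p = 0.00461, edgeR), and this call held when each of the 12 libraries was left out in turn. It fell by 36.2% in CS2164_IR against CS2164 (-0.65 ± 0.16, adjusted p = 0.02, edgeR), a call lost without CS2164 library 3 (adjusted p = 0.0742), CS2164_IR library 2 (0.0648) or CS2164_IR library 3 (0.107). In IR against control the difference was -0.58 ± 0.16 (adjusted p = 0.108 in edgeR and 0.0132 in DESeq2). Without both distant libraries PEG10 was called against control in CS2164_IR (-0.52, adjusted p = 0.0371) and in IR tumours (-0.66, adjusted p = 0.011, edgeR).

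Exons of PEG10 overlap those of SGCE, a neighbour on the opposite strand that is imprinted too, and the library protocol does not mark the strand. SGCE had 147, 123 and 115 CPM in CS2164_IR libraries, 95.1, 129 and 141 CPM in CS2164 libraries, 116, 113 and 122 CPM in IR libraries, and 132, 165 and 140 CPM in control libraries. Its levels were far below those of PEG10, and it was not called in any comparison.

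IGF2BP1 (ENSG00000159217, chromosome 17, 48997412 to 49055650, plus strand) encodes an oncofetal RNA-binding protein that stabilises growth-related messages. It had 186, 207 and 179 CPM in CS2164_IR libraries, 262, 301 and 291 CPM in CS2164 libraries, 178, 213 and 193 CPM in IR libraries, and 231, 160 and 228 CPM in control libraries. The 3 CS2164 libraries were above the 9 others. IGF2BP1 was 1.38-fold higher in CS2164 than in control (log2 0.47 ± 0.15, adjusted p = 0.0364, edgeR) and fell by 33.0% in CS2164_IR against CS2164 (-0.58 ± 0.15, adjusted p = 0.0226, edgeR). These comparisons share the CS2164 libraries. The rise over control was lost without control library 2, the lowest (0.31, adjusted p = 0.142, edgeR), and after removal of the GC and length trend (0.22, adjusted p = 0.174), and also without CS2164_IR library 3, CS2164 library 2 or 3, or IR library 2. With the replicate block its adjusted p was 0.0547, with upper-quartile scaling 0.0544, with only these groups 0.133 and without both distant libraries 0.0504, edgeR. For radiation averaged over CS2164, IGF2BP1 differed by -0.33 ± 0.11 (adjusted p = 0.0614), and by -0.44 (adjusted p = 0.000302, edgeR) without both distant libraries. The fall in CS2164_IR was lost without CS2164_IR library 1 or 3 or CS2164 library 2 or 3 (adjusted p of 0.0531 to 0.106, edgeR). Its exons overlap antisense noncoding genes that are not in the table. The related IGF2BP2 and IGF2BP3, which bind similar messages, were not called, IGF2BP3 with 0.62 ± 0.21 in CS2164 against control (adjusted p = 0.0506, edgeR).

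**Figure D2:**
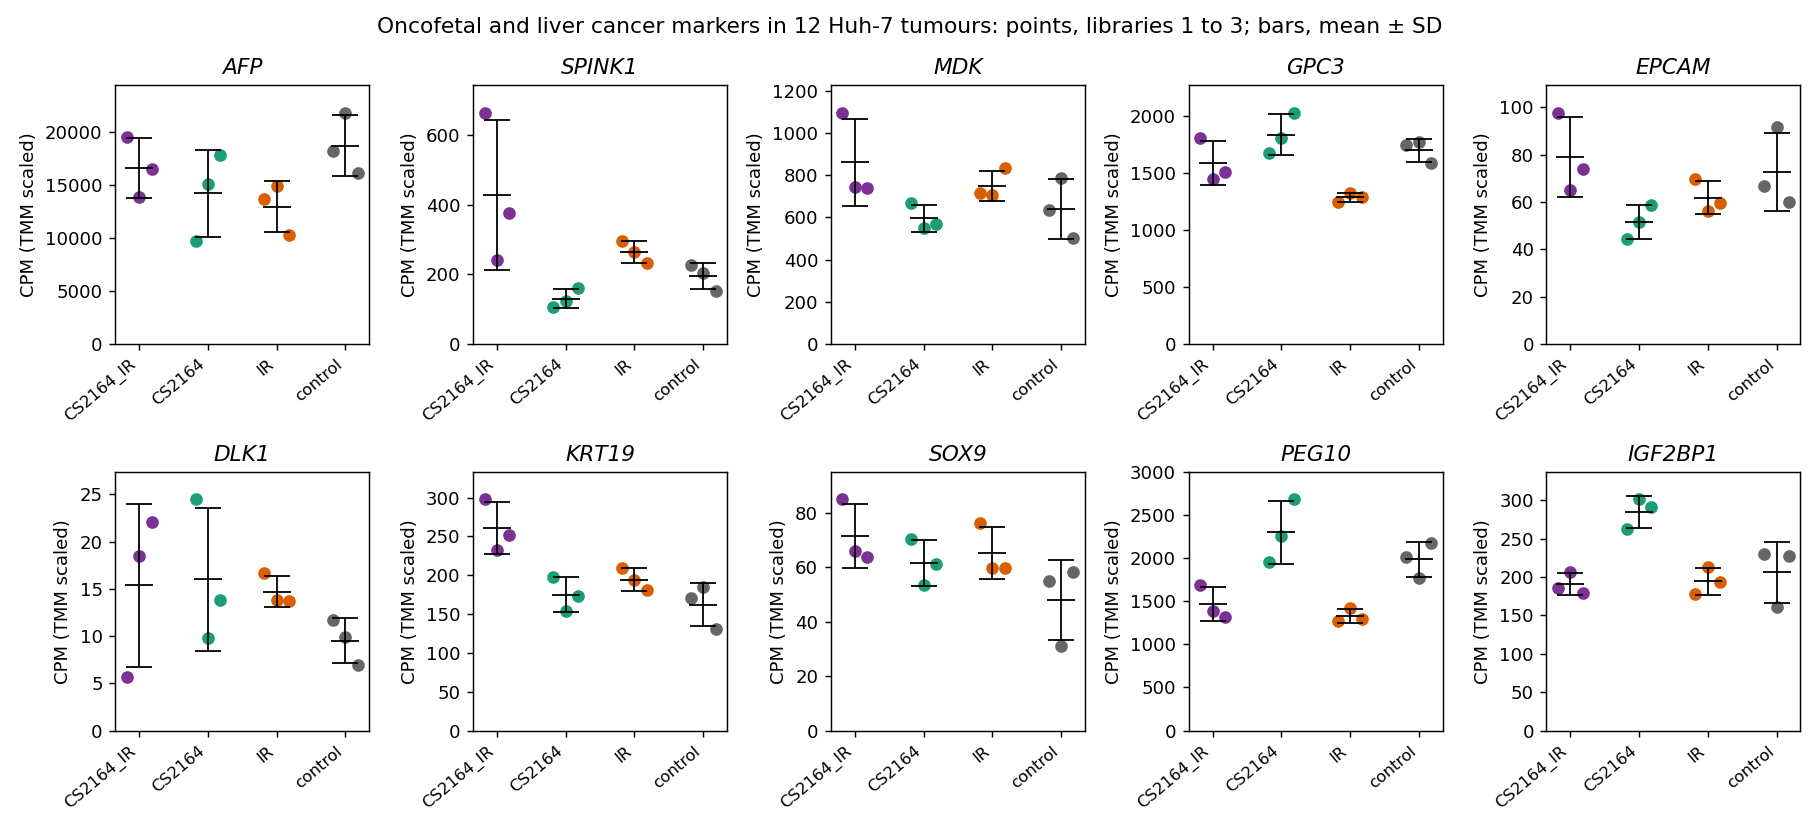
CPM of each marker (TMM scaled, axes from 0) in 12 libraries, 1 panel per gene, with points for libraries and bars for the mean and SD of 3. SPINK1 is higher and PEG10 lower in the 6 irradiated libraries than in the 6 others, and IGF2BP1 is highest in the 3 CS2164 libraries.

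Counted over the list, most calls came from CS2164_IR against CS2164, which asks what radiation added to the compound. There 5 of 10 members were called by edgeR, SPINK1, EPCAM and KRT19 higher and PEG10 and IGF2BP1 lower, where 9.69% of all tested genes were called (3.78% higher and 5.91% lower). The count was 2 without CS2164_IR library 1, CS2164 library 2 or CS2164 library 3, and 1 without CS2164_IR library 3. The libraries of the groups did not overlap for 6 members, against 32.3% of all genes. The median log2 change was 0.22 over the members and 0.04 over all genes. Since the members and further lists were chosen with earlier results of these data known, their shares beside all genes are a description only. For radiation averaged over CS2164, 3 of 10 were called, SPINK1 and KRT19 higher and PEG10 lower, beside 7.62% of all genes (3.45% higher and 4.16% lower), and 2 members had no overlap between the 6 irradiated and the 6 other libraries, against 3.31% of genes. The averaged count was 6 without CS2164 library 1 and 5 without control library 2. Upper-quartile scaling changed the balance over all genes from 511 higher and 799 lower to 750 and 614 in CS2164_IR against CS2164, and from 467 and 563 to 626 and 423 for averaged radiation.

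CS2164 against control gave 1 call among the members, IGF2BP1, a share near the background of 19.7% of all genes (10.4% higher and 9.32% lower; 1131 higher and 1543 lower genes with upper-quartile scaling). The count was 0 without CS2164_IR library 3, CS2164 library 2, IR library 2 or control library 2, and 2 without CS2164_IR library 1 or control library 3. Libraries did not overlap for 2 members, IGF2BP1 and EPCAM, against 36.4% of genes. IR against control gave 0 calls by edgeR, beside 0.436% of all genes (0.207% higher and 0.229% lower), with 4 members at an unadjusted p under 0.05, 1 call by DESeq2 and 0 by limma voom. Without CS2164 library 1, which is in neither group, edgeR called 1, PEG10. The groups did not overlap for 6 members, 3 higher and 3 lower, against 26.3% of genes. CS2164_IR against control gave 0 calls by edgeR, beside 0.192% of genes (0.148% higher and 0.0444% lower), with 5 members at an unadjusted p under 0.05, 2 calls by DESeq2 and 0 by limma voom. Without CS2164 library 1 or CS2164_IR library 2 edgeR called 1. No overlap was seen for 4 members, SPINK1, KRT19 and SOX9 higher and PEG10 lower, against 26.4% of genes.

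The compound added to radiation gave no call among the members. In CS2164_IR against IR, edgeR called 0 members and 0% of all genes, and DESeq2 and limma voom called 0. The 2 members with an unadjusted p under 0.05 were KRT19 and SPINK1. SPINK1 differed by 0.69 ± 0.27, with overlapping libraries, and by 0.23 to 0.98 with single libraries left out. The median log2 change was 0.25 over the members, 9 of 10 above 0, and -3.4e-05 over all genes. KRT19 (0.42 ± 0.15) and GPC3 (0.31 ± 0.15) did not overlap between these groups, beside 9.5% of genes, and the adjusted p was 1 for all 10 in edgeR. CS2164 averaged over radiation called 0 members by edgeR and by the other tools, beside 0.178% of genes (0.133% higher and 0.0444% lower), with 1 member, KRT19, at an unadjusted p under 0.05 and none without overlap, against 0.71% of genes. For the interaction edgeR called 0 members and 0% of genes, 4 members had an unadjusted p under 0.05, DESeq2 called 2 and limma voom 0. The 4 were SPINK1, EPCAM, AFP (0.76 ± 0.32) and IGF2BP1 (-0.50 ± 0.21). Over the alternatives other than leaving out single libraries, these values ran from 0.27 to 0.81 for AFP and from -0.51 to -0.24 for IGF2BP1.

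**Figure D3:**
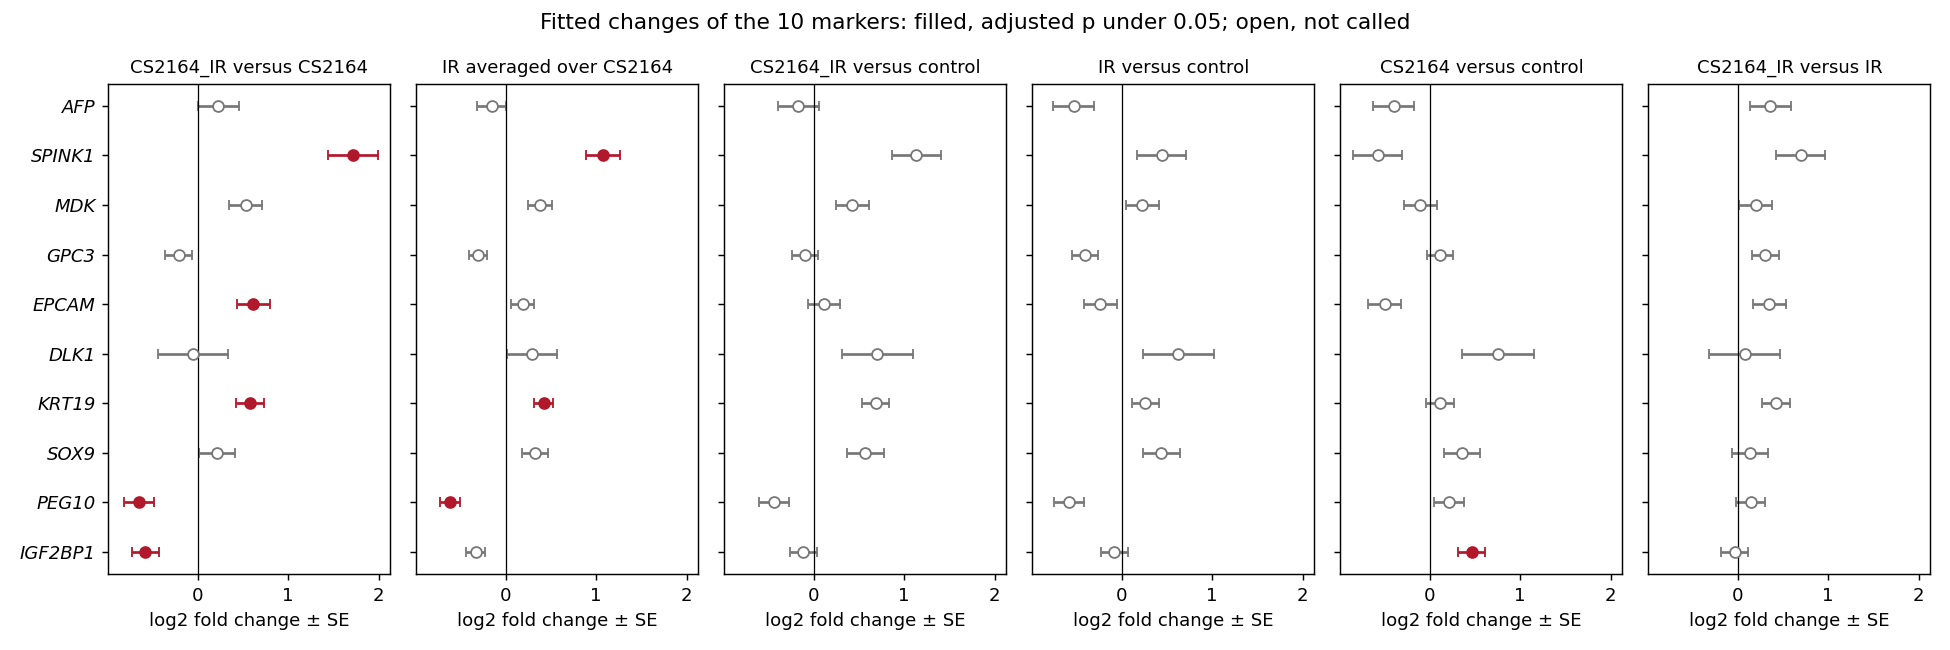
Fitted log2 fold changes with standard errors of the 10 markers in 6 comparisons, filled where the edgeR adjusted p was under 0.05. The 5 filled points in CS2164_IR against CS2164 run from -0.65 for PEG10 to 1.71 for SPINK1, and the panels against control hold 1 filled point, IGF2BP1 in CS2164.

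Factors that act on AFP and other fetal liver genes were read from a list of 22, all tested. In CS2164 against control 7 of them rose and none fell, where 10.4% of all genes rose and 9.32% fell, with a list median of 0.26 against -0.01 over all genes, and in CS2164_IR against CS2164 4 fell and none rose, where 5.91% of all genes fell and 3.78% rose, with a median of -0.24 against 0.04. ZFHX3, a repressor of AFP also known as ATBF1, rose by 1.05 ± 0.18 (adjusted p = 0.00451) in the first and was -0.92 ± 0.18 (adjusted p = 0.00676) in the second, both by edgeR. HNF4A, the hepatocyte master regulator, fell by 0.81 ± 0.16 in CS2164_IR against CS2164 (adjusted p = 0.0073, edgeR). ZHX2, which in mice silences Afp after birth, had 42.0, 72.9 and 81.5 CPM in CS2164_IR libraries, 178, 106 and 104 CPM in CS2164 libraries, 52.7, 71.8 and 67.2 CPM in IR libraries, and 73.0, 92.3 and 64.3 CPM in control libraries. It fell in CS2164_IR against CS2164 (-0.98 ± 0.24, adjusted p = 0.0169, edgeR), but not without CS2164_IR library 1, its lowest, or CS2164 library 1, its highest. ZBTB20, the other known repressor of AFP in liver, was not called. AFP itself passed the test in neither comparison.

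Of 12 tested genes in a list of other oncofetal genes, 1 rose in CS2164 against control, near the 10.4% of all genes that rose, 2 fell in CS2164_IR against CS2164 (5.91% of all genes fell) and 3 fell for radiation averaged over CS2164 (4.16% fell). IGF2, the fetal growth factor whose messages IGF2BP1 was named for, averaged 33.6 ± 6.27 CPM in CS2164_IR, 88.0 ± 25.2 CPM in CS2164, 30.6 ± 7.99 CPM in IR and 34.9 ± 12.6 CPM in control libraries (SD, n = 3 each). It rose in CS2164 against control (1.34 ± 0.27, adjusted p = 0.00557) and fell in CS2164_IR against CS2164 (-1.39 ± 0.27, adjusted p = 0.0072, edgeR), as IGF2BP1 did in both. The rise in CS2164 was lost without both distant libraries, and IGF2 shares exons with the readthrough gene INS-IGF2, between which counting may split reads. DUSP9, a phosphatase of placenta and liver cancer, fell by 0.51 ± 0.11 for averaged radiation (adjusted p = 0.0119, edgeR). LIN28B, which blocks let-7 microRNAs in fetal cells, fell by 0.42 ± 0.12 (adjusted p = 0.0437, edgeR), a call lost under 13 of the 21 alternatives.

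Other progenitor and bile duct genes gave 4 rises and no fall among 16 tested in CS2164 against control (10.4% of all genes rose), and 1 rise and 1 fall in CS2164_IR against CS2164 (3.78% rose and 5.91% fell). TNFRSF12A, the TWEAK receptor through which progenitor cells are driven to expand, averaged 189 ± 31.6 CPM in CS2164_IR, 113 ± 12.6 CPM in CS2164, 154 ± 7.09 CPM in IR and 126 ± 15.6 CPM in control libraries (SD, n = 3 each). It rose in CS2164_IR against CS2164 (0.74 ± 0.15, adjusted p = 0.00755) and for averaged radiation (0.52 ± 0.10, adjusted p = 0.00759, edgeR), and held in all alternatives. CDH1, the epithelial cadherin, rose in CS2164 against control (0.70 ± 0.16, adjusted p = 0.00965, edgeR). Among 16 tested liver cancer markers outside the members, 3 fell in CS2164 against control, 1 fell in CS2164_IR against control and 2 fell for averaged radiation, where 9.32%, 0.0444% and 4.16% of all genes fell. AKR1B10, an aldo-keto reductase raised in many liver cancers, fell in CS2164_IR against control (-1.07 ± 0.19, adjusted p = 0.0223, edgeR), a call lost without CS2164_IR library 1 or 3 or control library 2 or 3.

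Of 23 tested receptors, proteases and partners of the members, 7 rose in CS2164 against control (10.4% of all genes rose there), 5 fell in CS2164_IR against CS2164 (5.91% of all genes fell), and 1 rose and 4 fell for averaged radiation (3.45% and 4.16%). For averaged CS2164, 2 rose, LRP1 and NOTCH2, and none fell, where 0.133% of all genes rose and 0.0444% fell. These calls were lost under 7 and 12 of the 21 alternatives. The list median in CS2164 against control was 0.40 against -0.01 over all genes. NOTCH2 and LRP1, both reported receptors of midkine, fell by 1.10 ± 0.15 (adjusted p = 0.00171) and 1.27 ± 0.21 (adjusted p = 0.00308) in CS2164_IR against CS2164, edgeR, where MDK was not called. EGFR, reported as a receptor of SPINK1, fell by 0.56 ± 0.13 (adjusted p = 0.0163, edgeR), where SPINK1 rose, a call lost without CS2164_IR library 1 or 3 or CS2164 library 3. In CS2164 against control all of these receptors rose. LRP1 (1.05 to 1.83) and NOTCH2 (0.80 to 1.24) were called there under all 22 alternatives, and EGFR under all but 1. In CS2164_IR against control 0 genes of the list were called, beside 0.192% of all genes. SULF1, a sulfatase that trims heparan sulfate chains such as those of glypican-3, averaged 1.99 ± 0.34 CPM in CS2164_IR, 4.82 ± 0.27 CPM in CS2164, 1.80 ± 0.98 CPM in IR and 4.56 ± 1.34 CPM in control libraries (SD, n = 3 each). It fell by 1.31 ± 0.25 for averaged radiation (adjusted p = 0.00461, edgeR), and held in all alternatives.

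Some relatives of the members were near silent. PTN, the other midkine family gene, had at most 2 counts per library and was not tested. The glypicans GPC1 and GPC4 had 6 to 22 and 6 to 42 counts per library and were not called. GPC6 fell in CS2164_IR against CS2164 (-0.65 ± 0.15, adjusted p = 0.0164, edgeR), a call lost without CS2164_IR library 1 or 3 or CS2164 library 3. Of 12 tested imprinted genes beside PEG10 and DLK1, 1 rose and 2 fell for averaged radiation, where 3.45% of all genes rose and 4.16% fell. PHLDA2, a growth-restraining placental gene, rose (1.07 ± 0.20, adjusted p = 0.00417, edgeR), in the direction opposite to PEG10. The 2 that fell, as PEG10 did, were IGF2 and IGF2R, calls lost under 3 and 7 of the 21 alternatives.

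Of the 9 called changes among the members, all kept their sign under the 22 alternatives (21 for averaged effects), and 3 were called whichever of the 12 libraries was left out. Those 3 were SPINK1 in CS2164_IR against CS2164 and, for radiation averaged over CS2164, SPINK1 and PEG10. The remaining 6 were lost when at least 1 single library was left out.

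**Figure D4:**
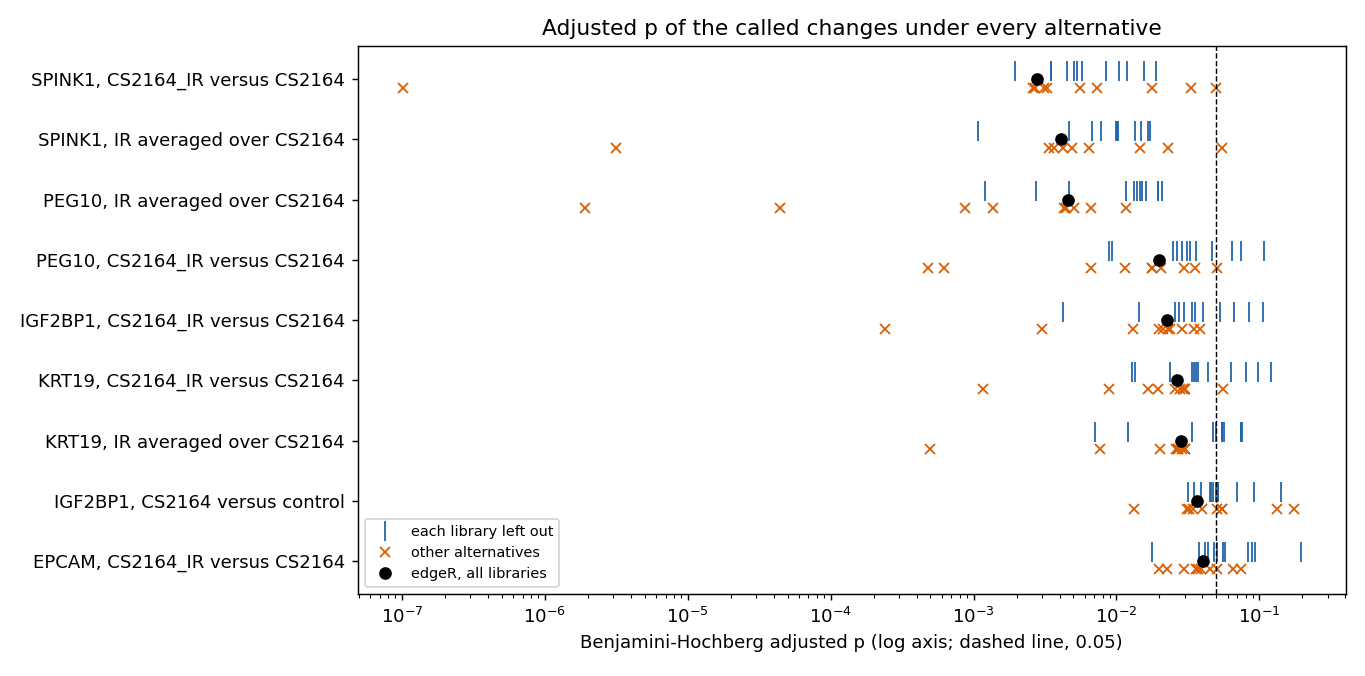
Benjamini-Hochberg adjusted p, on a log axis, of the 9 called changes with all libraries (circles), with each library left out (bars) and under the other alternatives (crosses), with a dashed line at 0.05. Only the leave-one-out bars of SPINK1 in both comparisons and of PEG10 for averaged radiation stay left of the line.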

How the data were processed

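The members and the further gene lists were chosen with earlier results of these data known. For each gene and library the deposited table holds a read count and an FPKM. Per the submitters' processing notes, the authors used HISAT2 2.1.0, HTSeq 0.9.1 and build GRCh38, and their annotation release is not stated. The FPKM deposited by the authors equal the count per length and per table total, checked on 17185 genes, and were used for levels per length. The whole-number counts deposited by the authors were used for every test. Symbols were matched to 19941 of 19988 identifiers, and gene positions come from GENCODE annotation of GRCh38.

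Counts were filtered with filterByExpr of edgeR 4.0.16 (R 4.3.3), scaled by TMM, and fitted with 1 robust quasi-likelihood model over all 12 libraries with a coefficient per group. There were 8 comparisons: 5 pairs of groups, CS2164 and radiation each averaged over the other, and their interaction. Benjamini-Hochberg adjustment ran over 13521 genes within each comparison, with a threshold of 0.05, and standard errors were derived from F statistics. Intervals of 95% use the t distribution with 8 degrees of freedom. The fitting function was tested on simulated counts for CS2164 against control, and the other steps had no such test. All 10 members are named, with up to 3 called genes of each further list by adjusted p, a few relatives always looked up, and no others. Likeness between genes is the Pearson correlation of log2 CPM with a prior count of 2. Alternatives were DESeq2 1.42.0, limma voom (3.58.1), upper-quartile and RLE scaling, 2 other filters (none, or a mean of at least 1 CPM), a replicate block, fitting only the compared groups, removing the trend of each library with GC content and length (spline with 4 degrees of freedom), dropping 2 distant libraries, and each library left out.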

Additional observations from a re-analysis of the deposited data

How the results depend on the processing

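Precision was limited by 3 libraries a group, and DLK1, the lowest member, had 71 to 374 counts per library. No alternative moved the median of all genes by more than 0.1 through scaling, and with RLE scaling 40 of 40 group levels stayed within 1 SD. The number of members called in CS2164 against control was 1, and 0 with the replicate block, after removal of the GC and length trend, with only the compared groups, and without the 2 distant libraries. With upper-quartile scaling the 1 call was EPCAM in place of IGF2BP1. IR against control had 0 calls, and 1, PEG10, with DESeq2, after removal of the trend, and without the 2 distant libraries. CS2164_IR against control had 0 calls, 1 with no filter, and 2 with DESeq2 and without the 2 distant libraries. CS2164_IR against CS2164 had 5 calls and 2 with only the compared groups. Radiation averaged over CS2164 had 3 calls, 6 with DESeq2, and 5 after removal of the trend and without the 2 distant libraries. The interaction had 0 calls and 2 with DESeq2. The causes were not tested. Leaving out single libraries gave 0 to 2 calls in CS2164 against control, 0 to 1 in IR and in CS2164_IR against control, 1 to 6 in CS2164_IR against CS2164, and 2 to 6 for averaged radiation. In CS2164_IR against IR and for averaged CS2164 the count was 0 in every setting.

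Replicate numbers were not treated as pairs: 3 of 18 same-numbered pairs had deviations correlated above 0.1, and 3 of 12 libraries correlated best with their own number. With the replicate block, 0 members were called in CS2164 against control, where IGF2BP1 was lost, and 4 in CS2164_IR against CS2164, where EPCAM was lost, and the count was the same elsewhere.

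Over all genes, calls varied more. CS2164 against control had 2669, with 285 when only the compared groups were fitted and 621 to 2665 over the leave-one-out fits. CS2164_IR against CS2164 had 1310, with 3265 without the distant libraries and 310 to 2049 over the leave-one-out fits. Averaged radiation had 1030, with 3680 without the distant libraries and 445 to 2397 over the leave-one-out fits. IR and CS2164_IR against control had 59 and 26, with 348 and 318 by DESeq2. The interaction had 0, with 639 by DESeq2. Of 67 calls of genes named from the further lists, 60 held after removal of the trend, 54 without the distant libraries and 20 under every alternative, and none changed sign.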

Other observations

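Genes whose levels ran most alike with the called members across the 12 libraries are given as a description over 13520 genes, in which libraries of 1 group share a treatment. SPINK1 ran with BAMBI, a pseudoreceptor that dampens TGF-beta signals (Pearson r = 0.935), NBL1, a secreted BMP antagonist (0.908), and CNIH3 (0.904). EPCAM ran with ATP6AP2, an accessory protein of the proton pump (0.951), PDGFA, a growth factor (0.928), and ERG28 (0.927). KRT19 ran with RHOC, a small GTPase of cell motility (0.901), TSC22D3, a glucocorticoid-induced gene (0.889), and IFI27L2 (0.888).

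The closest gene to PEG10 was PID1 (0.981), followed by CTXND1 (0.967) and CPS1, the first enzyme of the urea cycle (0.964). IGF2BP1 ran with WDR82, a histone methyltransferase subunit (0.986), SMC1A of the cohesin ring (0.980) and ANK2, a membrane adaptor (0.977). Of 13 tested Wnt and beta-catenin targets, 2 rose and 1 fell in CS2164 against control, 1 rose and 1 fell in CS2164_IR against CS2164, and 1 fell for averaged radiation. Of 11 tested YAP targets, 4 rose and 1 fell, 1 rose and 2 fell, and 1 rose and 1 fell in the same comparisons by edgeR. Of all genes, 19.7%, 9.69% and 7.62% were called in these comparisons.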
